A study of Mus musculus with 2 samples.

Results

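The miR-10, miR-99/100 and miR-125 relatives are a set of microRNAs whose mature 5p arms share much of their sequence within each of these groups. Their genes lie beside Hox genes or beside let-7 genes. Members were all rows of the deposited count files named miR-10a, miR-10b, miR-99a, miR-99b, miR-100, miR-125a or miR-125b, with any arm or copy number. Of the 15 mature arms that RefSeq gives for these names, 10 were listed in at least 1 library, among 197 named miRNAs in all. Replicate 1 listed 8 of them and replicate 2 listed 10, and 8 were listed in both.

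Liver small RNAs were taken from C57BL/6 mice, wild type in genotype, that ate freely and were 2 to 3 months old. The labels call them controls and give 1 group of 2 replicate libraries, with no treated or mutant group. Named miRNAs held 306351 counts in replicate 1 and 538023 in replicate 2. Nothing in the labels says whether a library came from 1 animal or several, so the spread between the libraries may be technical.

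miRNAs are cut from hairpin precursors, and usually 1 arm, 5p or 3p, is kept to guide repression of mRNAs that pair with bases 2 to 8 of the miRNA, the seed. The miR-10 genes lie inside Hox clusters, the gene arrays that set position along the body axis, and the miR-99/100 and miR-125 genes share primary transcripts with let-7 genes. miR-125 is the vertebrate relative of worm lin-4, a timing miRNA that, like let-7, marks differentiated cells, and miR-99/100 miRNAs are known to repress the growth kinase mTOR.

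The seeds divide the relatives into 3 groups, shown by the mature 5p sequences of RefSeq on GRCm38.p6, written 5′ to 3′ with the seed in capitals. All lie on the plus strand.
miR-10a-5p: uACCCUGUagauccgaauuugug
miR-10b-5p: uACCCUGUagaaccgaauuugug
miR-99a-5p: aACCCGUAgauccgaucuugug
miR-99b-5p: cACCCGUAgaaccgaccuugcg
miR-100-5p: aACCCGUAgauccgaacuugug
miR-125a-5p: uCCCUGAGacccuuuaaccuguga
miR-125b-5p: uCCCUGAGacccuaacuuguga
let-7c-5p: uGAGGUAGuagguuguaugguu

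The let-7c sequence is shown for contrast, since it lies beside miR-99a. In RefSeq the miR-10 seed was held by 2 mature miRNAs and the miR-99/100 seed by 3, all of them relatives, while the miR-125 seed was held by 5, of which 2 were relatives. miR-10a-5p and miR-10b-5p differed by U12A, and miR-99a-5p and miR-100-5p by U16A, with positions counted from 1 at the 5′ end and the base of the miRNA named before given first. The number of single-base changes, insertions and deletions that turn one sequence into the other was 3 for miR-10a-5p and miR-100-5p, 6 for miR-10a-5p and miR-125b-5p, and 12 for miR-10a-5p and let-7c-5p. miR-125a-5p lay further from the other groups, at 9 from miR-10a-5p and 12 from miR-99b-5p. Reads of close relatives could be split between them by the counting, so single levels within a pair that differs by 1 base are uncertain.

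The relatives together took 2.72% of the named miRNA total in replicate 1, with an exact Clopper-Pearson 95% interval of 2.67 to 2.78, and 2.17% (2.13 to 2.21) in replicate 2. With miR-22-3p left out of the total, their mean share was 3.69% in place of 2.45%. Most of it was a Hox-linked miRNA, miR-10a-5p, followed by miR-125b-5p. miR-10 held 70.6% of the relatives' counts in replicate 1 and 61.1% in replicate 2. miR-125 held 23.5% and 30.7%, and miR-99/100 held 5.90% and 8.17%. The order of the 3 groups was the same in both libraries. These intervals cover counting error only, not variation between animals or preparations. No source used here names molecular identifiers, so repeat reads of 1 molecule may count separately and make the intervals too narrow. In a whole tissue, fewer cells of a type and less RNA per cell cannot be told apart.

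Marker miRNAs of the cell types a liver can hold were summed by list. The 4 hepatocyte arms, miR-122 among them, were all listed and took 4.33% and 4.65% of counts. Of 4 mesenchymal and stellate arms 3 were listed, at 0.554% and 0.333% in sum, and the 2 endothelial arms took 0.0444% and 0.0355%. Of 4 immune arms and of 3 biliary arms 1 each was listed, at 0.311% and 0.197% and at 0.0196% and 0.0303%. Of 4 erythroid arms, only miR-486b-5p was listed, with 14 counts in replicate 2. The 2 neural and 3 muscle arms were in neither file.

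Among the Hox-linked members, miR-10a-5p (mmu-miR-10a-5p in the files) had 5893 and 7140 counts in replicates 1 and 2. As a share of named counts it stood at 1.92% (95% interval 1.88 to 1.97) and 1.33% (1.30 to 1.36), rank 14 of 165 and 16 of 183 listed names. It was the only listed arm of the miR-10 genes. Neither its 3p arm nor an arm of miR-10b had a row in either file. The files list called loci only, so a missing row sets no upper limit on a level.

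miR-10a-5p was listed at chr11:96317186-96317207 on the plus strand of GRCm38. In GENCODE M21 its gene lies outside protein-coding genes, between Hoxb5, which ends 11043 bases upstream, and Hoxb4, which starts 992 bases downstream. Mir10b lies at chr2:74726070-74726137, within the annotated spans of Hoxd3 and Hoxd4. The 3 other miRNAs closest to miR-10a-5p in log2 CPM (library-scaled counts) over both libraries were let-7b-5p (distance 0.40), miR-192-5p (0.40) and let-7a-5p (0.44). Over 2 libraries this likeness mostly describes a shared level.

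The let-7-linked members lay at 3 loci, each with a miR-99/100 gene, a let-7 gene and a miR-125 gene in that order on the plus strand. On chromosome 9, Mirlet7a-2 starts 5211 bases after Mir100, and Mir125b-1 starts a further 45114 bases on. All 3 are intronic to the non-coding genes 3110039I08Rik and Gm49317 in GENCODE M21. Mir100 also overlaps an exon of an antisense non-coding gene, and Mir125b-1 an exon of the same-strand non-coding gene Gm28119. On chromosome 16, Mirlet7c-1 starts 656 bases after Mir99a and Mir125b-2 follows after 46522 bases, all in introns of Mir99ahg. On chromosome 17 the spacing is far tighter, with 94 bases between Mir99b and Mirlet7e and 367 between Mirlet7e and Mir125a. These 3 lie within the protein-coding gene Spaca6, with Mir125a overlapping an annotated exon and the other two in an intron.

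The chromosome 9 locus dominated the let-7-linked counts. Its miR-100 and miR-125b arms held 27.0% of the relatives' counts (95% interval 26.1 to 28.0) in replicate 1, against 35.9% (35.0 to 36.8) in replicate 2. The chromosome 16 locus held 1.35% (1.12 to 1.63) and 1.87% (1.63 to 2.13), and the chromosome 17 locus 1.01% (0.804 to 1.24) and 1.10% (0.923 to 1.31). The intervals of the chromosome 16 and chromosome 17 loci overlapped in replicate 1 and were apart in replicate 2. Counts of miR-125b-5p at the chromosome 9 copy include any reads of its identical copy that the counting placed there.

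miR-125b-5p, at chr9:41581940-41581961, was the most abundant let-7-linked member. Replicate 1 gave it 1909 counts and replicate 2 gave 3477, or 0.623% (95% interval 0.596 to 0.652) and 0.646% (0.625 to 0.668), and ranked 20 in each library. Its shares were close, at 0.635% ± 0.0163 (SD, n = 2). A second row for the chromosome 16 copy, Mir125b-2, was listed in replicate 2 only, with 25 counts at chr16:77646279-77646301. The listed sequences of the 2 copies are shown because they differ in length.
miR-125b-5p at Mir125b-1: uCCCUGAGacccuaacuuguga
miR-125b-5p at Mir125b-2: uCCCUGAGacccuaacuugugag

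The Mir125b-2 row carried 1 more base at its 3′ end. In the reference hairpins the base after the shared 22 is U in Mir125b-1 and G in Mir125b-2. The row at Mir125b-2 was listed with the longer sequence, and the rows at Mir125b-1 with the 22 bases that both copies share. Whether a row counts only reads of its listed length is not known.

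miR-100-5p, at chr9:41531437-41531458, had 345 and 704 counts, or 0.113% (95% interval 0.101 to 0.125) and 0.131% (0.121 to 0.141). miR-125b-5p, whose counts may include reads of its identical copy on chromosome 16, exceeded it 5.53-fold and 4.94-fold in counts. mmu-miR-99a-5p, which differs from it by 1 base and lies at chr16:77598940-77598961, had 113 and 215 counts. That was 0.0369% (0.0304 to 0.0443) and 0.0400% (0.0348 to 0.0457), so that miR-100-5p stood 3.05-fold and 3.27-fold above it. The 1-base pair kept nearly the same proportion in the 2 libraries.

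mmu-miR-125a-5p, at chr17:17830817-17830836, had 50 and 95 counts, or 0.0163% (95% interval 0.0121 to 0.0215) and 0.0177% (0.0143 to 0.0216). miR-125b-5p, with the same seed, was 38.2-fold and 36.6-fold more counted. The seed is also carried by miR-351-5p, which lies on the X chromosome and is not a relative by name, and which had 1310 and 1914 counts. Of all counts under the RefSeq miR-125 seed, miR-125b-5p held 58.4% and 63.4%, miR-351-5p 40.1% and 34.9%, and miR-125a-5p 1.53% and 1.73%. Under the miR-99/100 seed miR-100-5p held 73.7% and 75.8% and miR-99a-5p 24.1% and 23.1%, while miR-10a-5p was the only listed miRNA of its seed. The split by seed was thus between relatives for miR-99/100, and between a relative and an X-linked miRNA for miR-125.

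The lowest members of the 5p and 3p arms listed in both libraries came from Mir99b and Mir125b-1. mmu-miR-99b-3p had 24 counts in each library and miR-99b-5p 10 in each. miR-125b-1-3p had 2 and 9 counts. In replicate 2 alone, miR-125b-2-3p had 2 counts and miR-99a-3p had 1. Over the 131 miRNAs compared below, the 2 miR-99b arms were the only ones whose counts were equal in both libraries, a fact noticed after the values were seen.

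**Figure D1:**
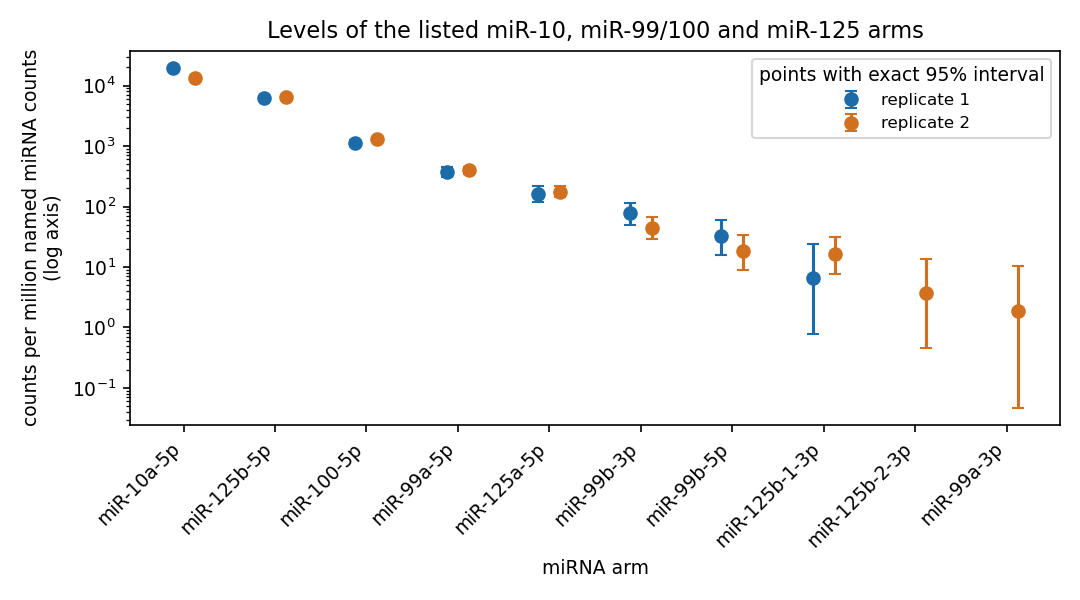
Level of each listed arm of the relatives in CPM of named miRNA counts (log axis), with a point and exact 95% interval for each library. miR-10a-5p and miR-125b-5p stand highest, and miR-125b-2-3p and miR-99a-3p have a point for replicate 2 only.

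The order of the 8 arms listed in both libraries was the same in each: miR-10a-5p, miR-125b-5p, miR-100-5p, miR-99a-5p, miR-125a-5p, miR-99b-3p, miR-99b-5p and miR-125b-1-3p. The 95% intervals of the neighbours from miR-10a-5p down to miR-99b-3p did not overlap in either library. Those of miR-99b-3p and miR-99b-5p overlapped in both libraries, as did those of miR-99b-5p and miR-125b-1-3p. Levels of different miRNAs were not calibrated against known amounts.

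Within each let-7-linked locus the let-7 arm and its neighbours had unlike levels. At the chromosome 16 locus let-7c-5p, at chr16:77599672-77599693, had 9041 and 10720 counts, 80.0-fold those of miR-99a-5p in replicate 1 and 49.9-fold in replicate 2. Because Mirlet7c-2 yields the same mature sequence, these counts may not all come from the chromosome 16 gene. At the chromosome 17 locus let-7e-5p, at chr17:17830366-17830387, had 399 and 458 counts, which was 7.98-fold and 4.82-fold those of miR-125a-5p. It stood 16.6-fold and 19.1-fold above miR-99b-3p. The 3p arm of let-7e had a single row, of 1 count, in replicate 2.

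At the chromosome 9 locus no such order could be read, since let-7a was listed in rows at different genes. The row of let-7a-5p at Mirlet7a-2, chr9:41536732-41536755, had 106 and 82 counts, 0.307-fold and 0.116-fold those of miR-100-5p. That row holds a 24-base form (uGAGGUAGuagguuguauaguuua), shown because its last base differs between Mirlet7a-1 and Mirlet7a-2. The 22-base form was listed at Mirlet7a-1 on another chromosome, with 7834 and 7981 counts, and its split between the let-7a genes is unknown. Whether a row counts only reads of its listed length is also unknown.

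**Figure D2:**
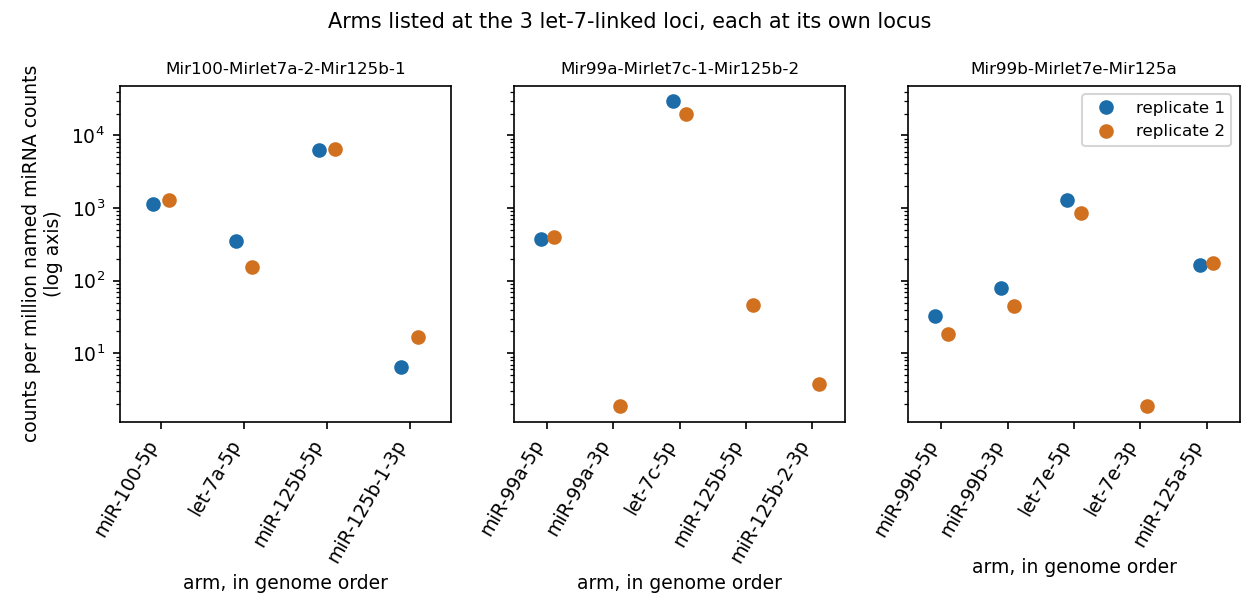
CPM of named miRNA counts (log axis) of each arm at the 3 let-7-linked loci, in genome order, with each row at its own locus and a point for each library. let-7c-5p stands above its neighbours on chromosome 16 and let-7e-5p above its neighbours on chromosome 17. The row of let-7a-5p at Mirlet7a-2, listed with a 24-base sequence, lies below miR-100-5p.

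Each miRNA's counts in replicate 2 were set against those in replicate 1 with an exact binomial test (2-sided), library sizes being scaled by TMM. The p-values were adjusted by Benjamini-Hochberg over the 131 miRNAs that both files list and that sum to 10 counts or more. This asks whether these libraries differ by more than counting error, not whether conditions differ. Among the 8 relatives tested, replicate 2 had more of 2, less of 1, and the remaining 5 missed the threshold. Over all miRNAs tested, 44.3% passed, 21.4% as higher and 22.9% as lower, so the relatives' 3 of 8 lay near the background. Their median log2 ratio of replicate 2 to replicate 1 was 0.24, beside -0.03 over all tested, and their median absolute log2 ratio was 0.38, beside 0.35.

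The Hox-linked member went one way and the most counted let-7-linked members the other. miR-10a-5p was lower in replicate 2, with a log2 ratio of -0.37 (95% interval -0.42 to -0.32) and an adjusted p of 3.75e-47 by the exact binomial test. miR-100-5p was higher, at 0.38 (0.19 to 0.57; adjusted p = 0.000201, exact binomial test), and so was miR-125b-5p, at 0.22 (0.14 to 0.30; adjusted p = 5.53e-07, same exact test). In counts, miR-10a-5p exceeded miR-125b-5p 3.09-fold in replicate 1 and 2.05-fold in replicate 2. Scaled by library totals alone, without TMM, the median of all tested miRNAs moved from -0.03 to -0.19. miR-125b-5p then stood at 0.05 and no longer passed (adjusted p = 0.301, exact binomial test). miR-100-5p stood at 0.22 and passed narrowly (adjusted p = 0.0470, exact binomial test).

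The other 5 tested arms did not pass the test. miR-99a-5p stood at 0.28 (95% interval -0.06 to 0.62) and miR-125a-5p at 0.27 (-0.23 to 0.80). miR-99b-3p stood at -0.65 (-1.53 to 0.23) and miR-99b-5p at -0.65 (-2.07 to 0.77). miR-125b-1-3p stood at 1.28 (-0.75 to 4.77). The intervals of miR-99b-5p and miR-125b-1-3p include differences as large as that of miR-10a-5p in either direction.

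The let-7 neighbours were lower in replicate 2, as miR-10a-5p was, but this was not particular to the shared loci. let-7a-5p, tested on its row at Mirlet7a-1 outside those loci, stood at -0.62 (95% interval -0.67 to -0.58). let-7c-5p stood at -0.40 (95% interval -0.44 to -0.36) and let-7e-5p at -0.45 (-0.65 to -0.25), and both passed under TMM, library totals and DESeq2 size factors. Their locus neighbours miR-99a-5p and miR-125a-5p had positive log2 ratios under all 3 scalings, without passing. The miR-99b arms, the other neighbours of let-7e-5p, had negative ratios under all 3, also without passing. Whether arms of 1 locus differed from each other in log2 ratio was not tested. As shares of named counts, without TMM, the summed mesenchymal, endothelial and immune marker arms were lower in replicate 2. Scaled that way, the median log2 ratio over all tested miRNAs was itself -0.19. The summed hepatocyte and biliary arms were higher, with the values given above. The immune and biliary sums held 1 arm each, and miR-192-5p of the hepatocyte list was lower (log2 CPM 13.83 and 13.65). The endothelial sum rested on 136 and 191 counts and the biliary sum on 60 and 163, and no intervals were taken. The part of these cell types in the differences was not tested.

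**Figure D3:**
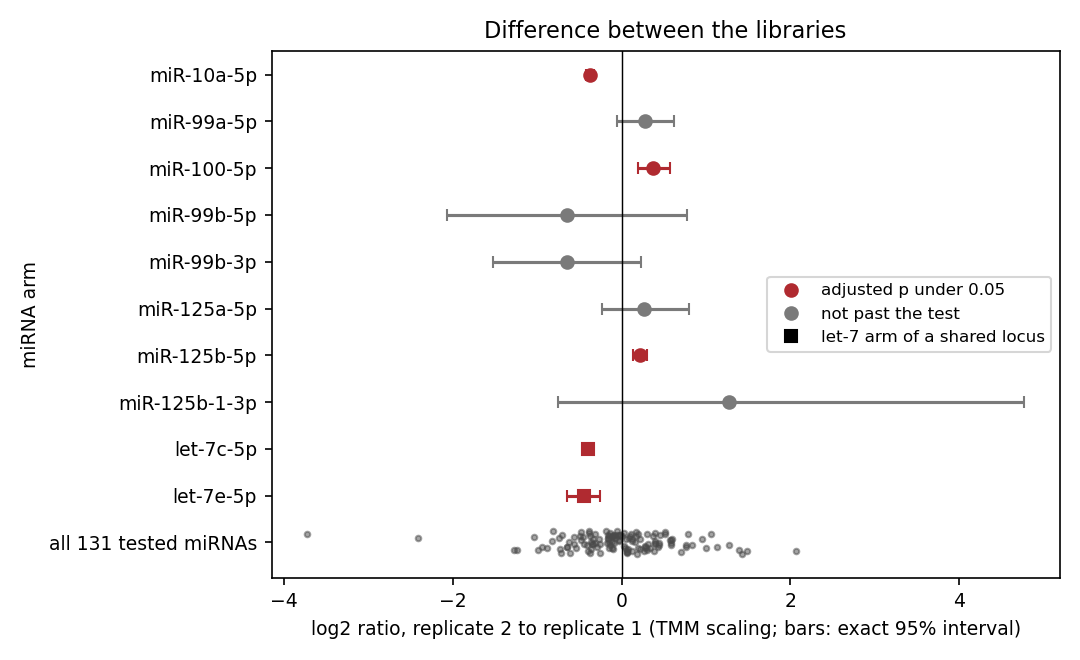
Log2 ratio of replicate 2 to replicate 1 for the 8 tested relatives and the let-7c-5p and let-7e-5p arms of their loci, with exact 95% intervals, above the 131 tested miRNAs as dots. miR-10a-5p at -0.37 lies beside the let-7 arms, and miR-100-5p (0.38) and miR-125b-5p (0.22) lie on the other side of 0.

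Arm choice could be tested in 2 hairpins of the relatives, out of 47 in which each library gave 20 counts or more and the pair of arms was named. Mir125b-1 was dominated by 5p, with 1909 of 1911 counts in replicate 1 and 3477 of 3486 in replicate 2. That was 99.9% (95% interval 99.6 to 99.99) and 99.7% (99.5 to 99.9). Its 5p counts may include reads of the identical 5p arm of Mir125b-2, whereas the 3p arms of the 2 copies differ in sequence. A 2-sided exact binomial test against equal shares called 5p the dominant arm in both libraries for 42.6% of all tested hairpins, and 3p for 51.1%.

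Mir99b was the exception to 5p dominance among the 2. Its 5p share was 29.4% in each library (95% interval 15.1 to 47.5), from 10 counts of 5p and 24 of 3p, and the excess of 3p passed the test with an adjusted p of 0.0260 in each library (exact binomial test). With a minimum of 50 counts the hairpin was not tested, since it held 34. Neither hairpin's arm share differed between the libraries by Fisher's exact test (adjusted p = 0.914 and 1, and unadjusted p = 0.348 and 1), beside 8.51% of all tested hairpins that did.

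The other hairpins showed 1 arm or nearly so. Mir10a, Mir100 and Mir125a were listed with 5p alone in both libraries. Mir99a had 215 counts of 5p and 1 of 3p in replicate 2, and Mir125b-2 had 25 and 2 there. Over the relatives as a whole, 5p arms held 99.7% of counts in each library. The 3p arms of all 5p-dominated hairpins with a 3p row had at most 9 counts.

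The 5′ end of most listed arms, which sets the seed, matched RefSeq, while the 3′ end was the same in 4 of 8 and 4 of 10. The 5′ end was the same in 7 of 8 arms in replicate 1 and 8 of 10 in replicate 2. Over all arms that could be matched, it differed in 9.93% of 141 arms in replicate 1 and 10.9% of 156 in replicate 2. The 3′ end was shorter than in RefSeq for miR-10a-5p by 1 base, for miR-125a-5p by 4 and for miR-125b-1-3p by 2, in both libraries. In all, the 3′ end was shorter in 3 of 8 relatives in replicate 1 and 5 of 10 in replicate 2, beside 37.6% and 34.0% of all matched arms.

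miR-99b-5p was the member whose 5′ end differed in both libraries, and its sequences are shown because the shift moves the seed.
miR-99b-5p in RefSeq: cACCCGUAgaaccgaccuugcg
miR-99b-5p as listed: aCCCGUAGaaccgaccuugcga

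The listed form starts 1 base later, at chr17:17830195-17830216, against a start of 17830194 in RefSeq, so bases 2 to 8 read CCCGUAG in place of ACCCGUA. This was the same in replicate 1 and replicate 2, with 10 counts each. miR-125b-2-3p, with 2 counts, was listed with a start 2 bases earlier than in RefSeq.

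The deposited hairpin sequences of the relatives departed from the reference genome at a few positions, most of them just past the 3′ end of the 5p arm. The hairpins of Mir10a, chr11:96317186-96317245, are shown with the differing bases in capitals. The reference is the GENCODE M21 transcript, and positions count from 1 at the 5′ end of the listed hairpin with the reference base first.
Mir10a reference at the bases that differ in replicate 2: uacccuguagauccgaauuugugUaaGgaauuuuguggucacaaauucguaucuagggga
Mir10a listed in replicate 1: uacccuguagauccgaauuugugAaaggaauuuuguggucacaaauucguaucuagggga
Mir10a listed in replicate 2: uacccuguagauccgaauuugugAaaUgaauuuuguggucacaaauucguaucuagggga

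Both libraries carried U24A, 2 bases after the listed arm of 22 bases and 1 after the RefSeq arm of 23, and replicate 2 also carried G27U. Mir100, at chr9:41531437-41531491, carried C23A and U24A in both libraries, directly after its arm.
Mir100 reference: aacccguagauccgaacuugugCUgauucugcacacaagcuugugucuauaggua
Mir100 listed in both libraries: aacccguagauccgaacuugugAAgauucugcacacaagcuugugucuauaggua

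The same was seen in the other members. Mir99a carried G23A and U24A, and Mir125b-1 carried U23A and G24U, in both libraries. Mir125a, at chr17:17830817-17830873, is shown because its arm was listed 4 bases short of RefSeq, and its differences begin after the RefSeq end, at position 25.
Mir125a reference: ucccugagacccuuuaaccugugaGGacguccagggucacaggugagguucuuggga
Mir125a listed in replicate 1: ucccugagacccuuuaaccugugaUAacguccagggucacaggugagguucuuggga
Mir125a listed in replicate 2: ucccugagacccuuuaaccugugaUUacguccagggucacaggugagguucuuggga

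Here replicate 1 carried G25U and G26A, and replicate 2 carried G25U and G26U. In the listed miR-99b-5p the last base of the arm itself departed from the reference, as G22A, followed by G23U. The hairpin listed with miR-99b-3p, which starts 3 bases earlier, also carried C3U at the position where the RefSeq 5p arm begins, in both libraries. All 6 member 5p arms had a hairpin with at least 1 difference in each library, against 78.4% of 88 matched 5p arms over all miRNAs in replicate 1 and 78.8% of 99 in replicate 2. Among all 5p arms with at least 50 counts it was 94.0% and 94.4%, so the pattern was general and not particular to the relatives.

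At every differing position from the last base of the arm to 7 bases past it, the relatives' listed base was A or U. This held for 11 positions in replicate 1, where the reference had G at 6, U at 4 and C at 1. It held for 12 positions in replicate 2, with G at 7, U at 4 and C at 1. Over all 5p arms A or U was listed at 99.2% of 129 such positions and 97.9% of 143. No source used here says how the hairpin sequences were made, and the origin of the differences was not tested.

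**Figure D4:**
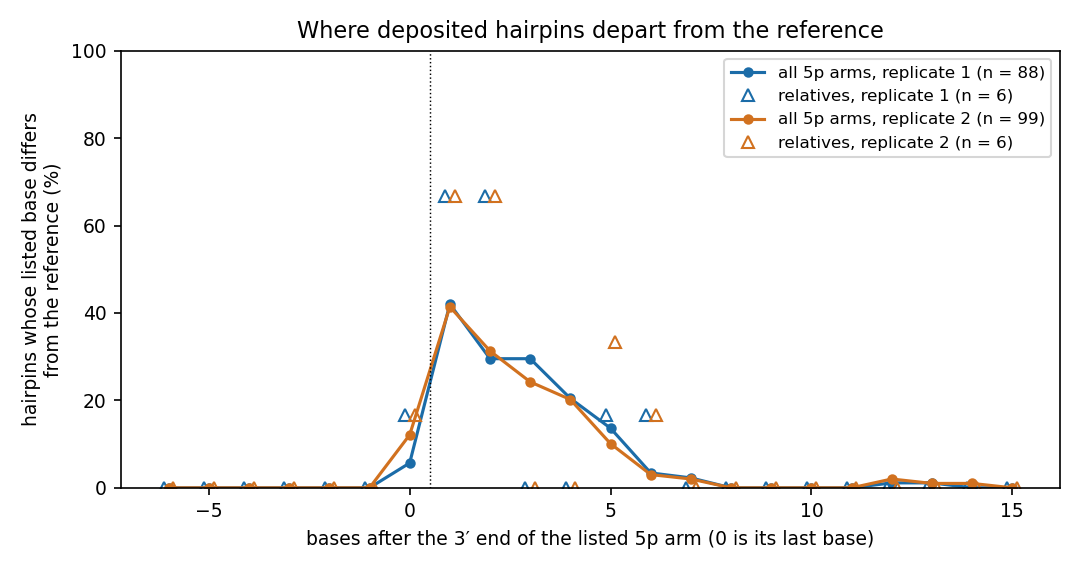
Share of hairpins whose deposited base differs from the reference, by position relative to the last base of the listed 5p arm, for all matched 5p arms (lines) and for the 6 relatives (triangles) in each library. Differences are absent over the 6 bases at offsets -6 to -1, peak at 42.0% and 41.4% at the base after the arm over all arms, and reach 66.7% of the relatives there.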

How the data were processed

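Small RNA libraries were made with an Illumina TruSeq kit from Trizol-extracted RNA of frozen liver, per the labels' protocols. Bowtie 1.0.1, cutadapt 1.5, FastQC 0.11.2 and build GRCm38 appear in the submitters' processing notes. No source used here names the locus caller or its filters. The deposited files give raw read counts per called locus, with positions counted from 0, to which 1 was added. Loci without a miRNA name (5.02% and 2.46% of listed counts) were left out of totals and tests. For a name with several loci the highest locus was used.

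Shares carry exact Clopper-Pearson 95% intervals (scipy 1.17.1). TMM factors came from edgeR 4.0.16 and size factors, as an alternative, from DESeq2 1.42.0. Log2 ratios used a prior count of 0.5 and the threshold was an adjusted p of 0.05. With 1 group there was no contrast for a quasi-likelihood test. The planned tests took each miRNA as measured in each library, and were limited to miRNAs listed in both libraries once the files were read. On Poisson counts simulated for 131 miRNAs, the test called 60.8% of those changed 1.5-fold, 76.4% of those changed 2-fold and at most 0.722% of unchanged ones. The simulation had no TMM step and no spread between libraries beyond counting error. Between the real libraries 44.3% of miRNAs passed, so the simulated rates do not describe the test on these data.

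Every listed arm of the relatives is named, with the let-7 arms of their loci and the 3 miRNAs closest to miR-10a-5p. Members, lists and tests were chosen with earlier results of these data known. The comparisons of arm ends, of counts by seed, of hairpins with the reference and of counts within a locus were added after the files were read. Mature sequences are RefSeq's, in which all 15 arms were matched, and hairpins are GENCODE M21's.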

Additional observations from a re-analysis of the deposited data

How the results depend on the processing

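Of 83 values recomputed under the alternatives, 80 were labelled the same. They kept their direction and side of the threshold, stayed within the spread between libraries or, for numbers of relatives or hairpins called, changed little. The fall from 3 relatives called to 2 with library totals, given below, is among these 80. With 2 libraries, leaving out 1 cannot move a share beyond that spread, so the outcome of those values was fixed in advance. The miR-10 group and the Mir10a locus hold the same counts and enter the 83 separately. Without miR-22-3p in the total, the relatives' share was 3.69% in place of 2.45%, since the denominator shrinks. With at least 50 counts per hairpin, 1 hairpin of the relatives in place of 2 was dominated by an arm, since Mir99b was not tested. With library totals miR-125b-5p no longer passed, so that 2 relatives differed between the libraries in place of 3, 1 higher and 1 lower. Over all tested miRNAs the split moved from 28 higher and 30 lower to 19 and 45. Treating unlisted miRNAs as 0, or changing the filter on low counts, left the relatives' counts at 2 higher and 1 lower. Leaving out a replicate left the relatives' share at 2.17% or 2.72%. No paired analysis was possible because there is 1 group. Depth limits the arms of Mir99b and the 3p arms of Mir125b-1, Mir125b-2 and Mir99a, with at most 24 counts each.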
